A study of Mus musculus with 29 samples.

Results

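Retinas of 2 albino strains were set against retinas of 2 pigmented strains at P30.5, an age in days after birth, and the probe sets that told both albino strains from both pigmented strains were described. The albino side comprised 6 arrays, 3 of AKR/J and 3 of NOD.NON-H2-nb1, and the pigmented side comprised 6 arrays, 3 of C57BL6/J and 3 of CAST/EiJ. These were 12 of the 29 arrays of the series, which also covered an embryonic age in days, E18.5, for these strains, and rd7 mice, carriers of a retinal degeneration mutation. Each array carried RNA pooled from 10 retinas, the labels name no treatment, and AKR/J descends from Castle's mice, NOD.NON-H2-nb1 from Swiss mice, C57BL6/J from the C57 line and CAST/EiJ from wild mice. By its name, NOD.NON-H2-nb1 is a NOD line that carries the H2 region of the NON strain, where genes of antigen presentation lie. The coat colours are general knowledge of these strains and not part of the sample labels. Since every albino array came from these 2 strains and every pigmented array from the other 2, coat colour and strain descent cannot be told apart.

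Melanin is made in melanosomes by tyrosinase, the enzyme that oxidizes tyrosine through L-DOPA, and laboratory albino mice carry a variant of its gene, Tyr. In the eye the pigment lies in the retinal pigment epithelium, the choroid and the iris, while the neural retina makes none. Albino animals are known for stronger light exposure of the retina, for a changed share of ganglion cell axons crossing at the chiasm and for altered handling of L-DOPA by the pigment epithelium. The melanocortin 1 receptor, Mc1r, is the receptor through which melanocyte-stimulating hormone raises the production of dark pigment in coat melanocytes.

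A probe set was counted as separating when all 4 comparisons of an albino with a pigmented strain ran in the same direction, each with at least a 2-fold difference and a limma p under 0.001 after Benjamini-Hochberg adjustment over all probe sets. By this rule 47 of 25444 probe sets separated the sides, 16 of them higher in the albino strains (0.0629% of all probe sets) and 31 lower (0.122%). Of the 47, 31 were annotated to 1 gene each and represented 30 genes, 13 higher and 17 lower, while 16 were not listed in the annotation. Each single comparison called far more probe sets. AKR/J had 112 higher and 253 lower than C57BL6/J, and NOD.NON-H2-nb1 had 139 higher and 245 lower than C57BL6/J. Against CAST/EiJ, AKR/J had 830 higher and 610 lower, and NOD.NON-H2-nb1 had 974 higher and 515 lower. Arrays correlated at 0.910 to 0.969 between the strains of a side and at 0.914 to 0.970 between strains of different sides, so those ranges overlapped almost wholly. These P30.5 values chose the probe sets, and the levels, folds and p-values given for them at P30.5 describe them. The p-values measure the spread of pools within strains. Over the strains themselves, with 2 on each side, an exact two-sided permutation test cannot go below 0.333.

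Some features of the pools differed between the sides or between single strains. The 14 lens genes, crystallins and lens membrane and filament proteins, were on the array but not in the RMA table, and their summed MAS5 signal (log2) was 11.9 to 15.5 in albino and 15.5 to 17.4 in pigmented arrays, meeting only at that edge. All 14 had a lower mean in the albino arrays, and the arrays of the sides did not overlap for 3 of them on this scale and for 5 after median centring. The 18 genes of the retinal pigment epithelium overlapped, with sums of 15.6 to 16.6 in albino and 15.3 to 16.1 in pigmented arrays. Rpe65, the isomerase of that epithelium, had MAS5 signals (log2) of 13.53, 13.52 and 13.47 in AKR/J arrays and 13.09, 11.45 and 11.97 in NOD.NON-H2-nb1. It had 12.32, 10.37 and 10.05 in C57BL6/J and 11.37, 11.18 and 11.77 in CAST/EiJ. AKR/J was thus highest, and replicate 1 was the highest array of NOD.NON-H2-nb1 and of C57BL6/J. The part of lens and pigment epithelium RNA in the results below was not tested. The 12 skeletal muscle genes overlapped, at 8.58 to 9.66 in albino and 8.66 to 10.5 in pigmented arrays, and the 19 rod genes, which mark the labelled tissue, summed to 17.8 to 18.3 and 17.9 to 18.6. Xist, which is high in female tissue, did not follow the sides: its MAS5 signal (log2) was 6.55 to 6.99 in AKR/J arrays and 13.4 to 13.6 in NOD.NON-H2-nb1, against 7.12 in replicate 3 and 13.4 and 13.5 in the other C57BL6/J arrays and 13.7 to 14.2 in CAST/EiJ. Without C57BL6/J replicate 3, 34 probe sets separated the sides.

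Mc1r was the only separating gene of the melanin and melanosome list, and its promoter and that of Tyr are shown because both genes belong to the pathway that defines the sides. The windows are from RefSeq (GRCm38.p6) and run from 250 bases before to 50 bases after the gene's start. Capitals mark E-box letters, CACGTG or CATGTG on either strand, the kind of sequence that pigment cell transcription factors such as MITF bind. The Mc1r window is chr8:123406832-123407131 on the plus strand and the Tyr window is chr7:87493463-87493762 on the minus strand.
Mc1r: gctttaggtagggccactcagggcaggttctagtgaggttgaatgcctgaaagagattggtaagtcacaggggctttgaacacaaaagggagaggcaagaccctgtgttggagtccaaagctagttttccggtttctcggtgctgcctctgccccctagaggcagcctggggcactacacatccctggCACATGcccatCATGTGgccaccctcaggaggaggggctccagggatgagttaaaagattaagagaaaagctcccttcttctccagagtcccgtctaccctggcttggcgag
Tyr: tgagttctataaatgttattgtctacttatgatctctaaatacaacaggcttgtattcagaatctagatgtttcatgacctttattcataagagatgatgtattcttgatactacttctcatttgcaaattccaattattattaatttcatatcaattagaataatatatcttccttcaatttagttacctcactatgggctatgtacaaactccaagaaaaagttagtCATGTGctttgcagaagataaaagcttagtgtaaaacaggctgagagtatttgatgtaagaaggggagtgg
The Mc1r window held these letters at 2 places, beginning 62 and 51 bases before the start, and the Tyr window at 1 place, 21 bases before it. They occurred in 20.4% of all 32851 windows, and in 2 of the 24 separating genes that had a window, Mc1r and Gmfb. A match describes the letters only.

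Mc1r was higher in the albino strains. Its RMA level (log2, 1435393_at) was 8.15, 7.62 and 8.04 in AKR/J arrays and 7.77, 7.85 and 7.83 in NOD.NON-H2-nb1, against 6.56, 6.30 and 6.45 in C57BL6/J and 5.77, 5.61 and 5.72 in CAST/EiJ. Every albino array lay above every pigmented one, the albino strains were close to each other, and CAST/EiJ was below C57BL6/J. The mean difference was 1.81 ± 0.11 (SE), or 3.50-fold, with an adjusted p of 1.22e-07. By median-centred MAS5 signals the difference was 1.30 with arrays apart, but NOD.NON-H2-nb1 minus C57BL6/J was 0.81, so that Mc1r missed the fold limit of the rule there. A further Mc1r probe set, with a low mean of 4.69, differed by 0.88 in the same direction and its arrays did not overlap either. Tyr itself did not meet the rule. Its brighter probe set in the RMA table had means of 6.92 in AKR/J arrays and 6.44 in NOD.NON-H2-nb1, against 6.42 in C57BL6/J and 5.13 in CAST/EiJ, so that NOD.NON-H2-nb1 and C57BL6/J were level and the mean difference of 0.91 (adjusted p = 0.022) rested on CAST/EiJ and AKR/J. The brightest Tyr probe set on the array, outside the RMA table, overlapped between the sides, with MAS5 signals (log2) of 8.91 to 9.63 in albino and 8.15 to 10.3 in pigmented arrays and a centred difference of 0.04. The call of the RMA probe set was lost without AKR/J replicate 3, NOD.NON-H2-nb1 replicate 1, or CAST/EiJ replicate 1 or 2.

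Among the other higher genes, Mtrex, Spata9 and AI506816 had the largest differences. Mtrex, an RNA helicase that feeds the nuclear exosome, had 8.31, 8.51 and 8.75 in AKR/J arrays and 8.71, 8.88 and 9.13 in NOD.NON-H2-nb1, against 3.35, 3.73 and 3.71 in C57BL6/J and 3.50, 3.50 and 3.59 in CAST/EiJ. The log2 difference was 5.15 ± 0.11, with the pigmented arrays at the low end of the scale, where RMA values do not tell a low level from background, so the fold is not given. Spata9, named for spermatogenesis, had 6.68, 7.26 and 7.25 in AKR/J arrays and 7.64, 8.13 and 7.43 in NOD.NON-H2-nb1, against 3.51, 3.56 and 3.52 in C57BL6/J and 3.31, 3.62 and 3.35 in CAST/EiJ, a difference of 3.92 ± 0.14 with the same limit. AI506816, a transcript without a described function here, had 8.60, 8.54 and 8.94 in AKR/J arrays and 8.72, 8.78 and 8.79 in NOD.NON-H2-nb1, against 4.32, 4.57 and 4.37 in C57BL6/J and 5.82, 5.70 and 5.56 in CAST/EiJ. Its pigmented strains differed from each other but both lay well below the albino strains, by 3.67 ± 0.10 on average.

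Signalling and neuronal genes among the higher ones were Kcnj9 and Ntrk3. Kcnj9 encodes a subunit of the potassium channels that G proteins open. It had 9.18, 9.17 and 9.96 in AKR/J arrays and 9.49, 9.84 and 9.51 in NOD.NON-H2-nb1, against 6.77, 7.31 and 7.31 in C57BL6/J and 6.49, 6.43 and 6.54 in CAST/EiJ, a 6.56-fold difference (log2 2.71 ± 0.15). Ntrk3 encodes TrkC, the receptor of neurotrophin-3. It had 7.94, 7.88 and 8.0 in AKR/J arrays and 8.33, 7.84 and 7.89 in NOD.NON-H2-nb1, against 6.97, 6.93 and 6.67 in C57BL6/J and 6.89, 6.80 and 6.58 in CAST/EiJ. The arrays were apart, by the small difference of 1.18 ± 0.11. Leaving out any array except NOD.NON-H2-nb1 replicate 2 took Ntrk3 below the rule.

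Metabolic and other genes made up the rest of the higher group. Gckr, the protein that inhibits glucokinase, had 10.11, 10.24 and 10.47 in AKR/J arrays and 10.04, 9.93 and 9.93 in NOD.NON-H2-nb1, against 8.44, 8.68 and 8.37 in C57BL6/J and 8.68, 8.65 and 8.53 in CAST/EiJ. It was 2.95-fold higher and one of the brightest members. Pccb, a subunit of the mitochondrial enzyme that carboxylates propionyl-CoA, differed by 1.33 ± 0.12, and Frg1, a nuclear protein linked to RNA processing, by 1.31 ± 0.11. The membrane and matrix genes Armh4, Fndc1 and Tmem26 differed by 2.37, 2.06 and 2.00, and Kbtbd11, a kelch repeat protein, by 1.5. Of these, Fndc1 missed the rule with labelled date as a block. Fndc1 showed the widest gap between the pigmented strains, with means of 7.53 in C57BL6/J and 5.62 in CAST/EiJ. The 3 higher probe sets without a gene differed by 2.14 to 3.05, and the largest 2 were 1420491_at (3.05) and 1443505_at (2.92).

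**Figure D1:**
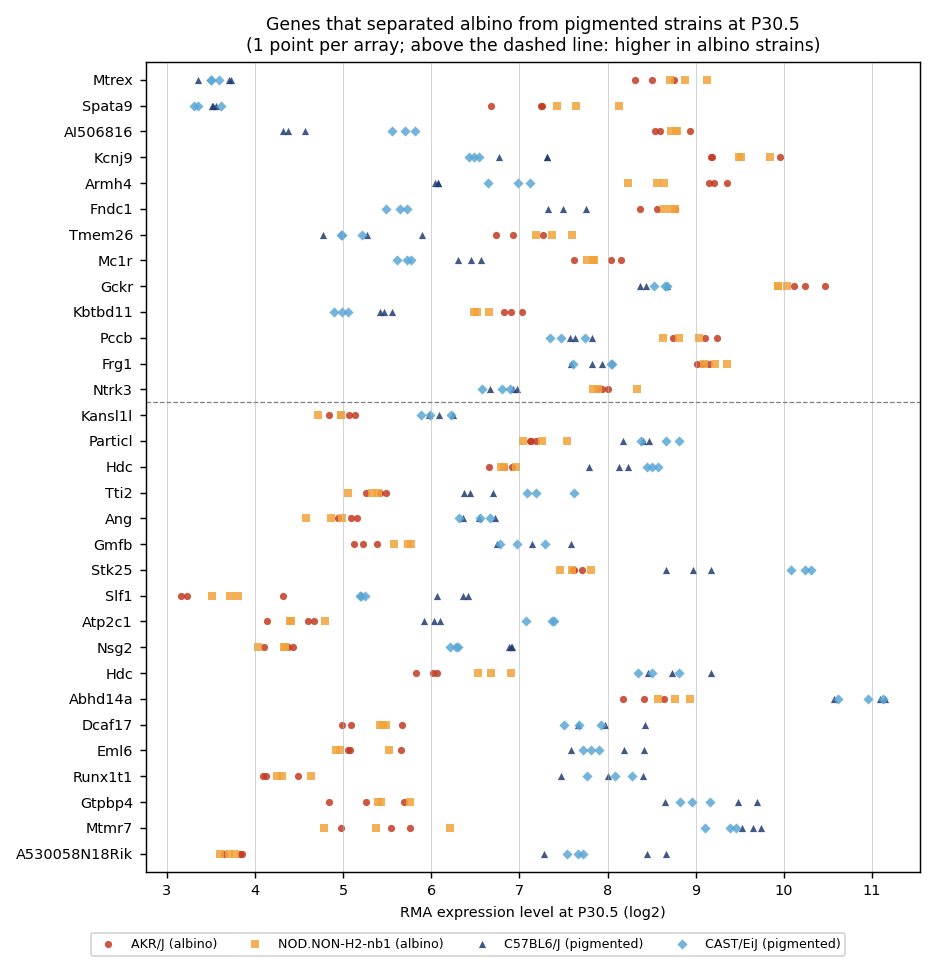
RMA level (log2, horizontal axis) of each array at P30.5 for the 31 probe sets of the 30 separating genes, 1 row per probe set, with the 13 higher genes above the dashed line and the 17 lower genes below it. Circles and squares are the albino strains AKR/J and NOD.NON-H2-nb1, triangles and diamonds the pigmented strains C57BL6/J and CAST/EiJ, and in no row do the sides overlap.

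The lower group began with A530058N18Rik, Mtmr7, Gtpbp4 and Runx1t1. A530058N18Rik, a transcript with no described product here, had 3.85, 3.83 and 3.65 in AKR/J arrays and 3.6, 3.71 and 3.77 in NOD.NON-H2-nb1, against 7.28, 8.66 and 8.45 in C57BL6/J and 7.72, 7.66 and 7.54 in CAST/EiJ. Mtmr7, a phosphatase of phosphoinositides in the myotubularin family, had 5.54, 5.76 and 4.98 in AKR/J arrays and 6.21, 5.37 and 4.78 in NOD.NON-H2-nb1, against 9.53, 9.65 and 9.74 in C57BL6/J and 9.46, 9.39 and 9.11 in CAST/EiJ. The log2 differences were -4.15 ± 0.19 for A530058N18Rik, whose albino arrays lay at the low end of the scale, and -4.04 ± 0.21 for Mtmr7. Gtpbp4, a nucleolar GTPase of ribosome assembly, had 4.84 to 5.76 in albino and 8.65 to 9.69 in pigmented arrays. Runx1t1, a transcriptional corepressor, had 4.09 to 4.63 in albino and 7.47 to 8.40 in pigmented arrays. In both genes the albino arrays formed a low group below all pigmented arrays, which the rule largely fixes.

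Hdc was the single gene that separated by more than 1 probe set of the RMA table. It encodes histidine decarboxylase, which makes histamine. Probe set 1454713_s_at had 5.83, 6.02 and 6.07 in AKR/J arrays and 6.53, 6.91 and 6.68 in NOD.NON-H2-nb1, against 8.73, 9.17 and 8.46 in C57BL6/J and 8.35, 8.81 and 8.50 in CAST/EiJ, a 5.03-fold difference (log2 -2.33 ± 0.13). Probe set 1451796_s_at had 6.66 to 6.96 in albino and 7.79 to 8.57 in pigmented arrays, a difference of -1.45 ± 0.10. AKR/J was below NOD.NON-H2-nb1 by 1454713_s_at only, while 1451796_s_at put the albino strains close together, at means of 6.80 and 6.85.

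Genes of transport, kinases and the cytoskeleton were also lower. Nsg2, a protein of neuronal endosomes, had 4.43, 4.10 and 4.38 in AKR/J arrays and 4.33, 4.34 and 4.03 in NOD.NON-H2-nb1, against 6.91, 6.88 and 6.92 in C57BL6/J and 6.28, 6.21 and 6.30 in CAST/EiJ. Eml6, a microtubule-binding protein, had 4.92 to 5.66 in albino and 7.59 to 8.41 in pigmented arrays. Atp2c1, the calcium and manganese pump of the Golgi, had 4.14 to 4.79 in albino arrays, against 5.92 to 6.10 in C57BL6/J and 7.07 to 7.39 in CAST/EiJ. Stk25, a serine and threonine kinase of the Golgi, showed the same order, with 7.46 to 7.81 in albino arrays, against 8.66 to 9.17 in C57BL6/J and 10.1 to 10.3 in CAST/EiJ. In these 2 genes the albino strains coincided and the pigmented strains differed from each other by over 1 log2 unit.

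The remaining lower genes differed by 1.12 to 2.51 on the log2 scale. Dcaf17, a substrate receptor of a ubiquitin ligase, had means of 5.25 in AKR/J arrays and 5.45 in NOD.NON-H2-nb1, against 8.01 in C57BL6/J and 7.71 in CAST/EiJ. Abhd14a, of the alpha/beta hydrolase fold, was the brightest lower gene, at 8.17 to 8.94 in albino and 10.6 to 11.2 in pigmented arrays. Slf1, which brings a DNA repair complex to damage, differed by -2.12 and Gmfb, the glia maturation factor, by -1.62. Ang, the ribonuclease angiogenin, differed by -1.59. Tti2, a partner in the complex that stabilizes kinases of the ATM family, differed by -1.58 and missed the rule with labelled date as a block. The long noncoding RNA Particl differed by -1.27 and Kansl1l by -1.12. Ang belongs to a family of near-identical ribonuclease genes and its probe set can match several transcripts, as can those of Hdc, Mtmr7, Abhd14a and Particl by their suffix. The 13 lower probe sets without a gene differed by -3.55 to -1.40, led by 1442568_at (-3.55) and 1444198_at (-3.29).

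For all 47 the 6 albino arrays lay on one side of the 6 pigmented arrays, which held for 1.35% (higher) and 1.24% (lower) of all probe sets. The rule fixes most of this, so it is a description. The 2 albino strains differed from each other by a median of 0.20, and by under 0.5 for 40 of the 47, while the pigmented strains differed by a median of 0.34, and by under 0.5 for 33. The weaker side had a mean under 5 for 18 of the 47, at the low end of the RMA scale. Just inside the limits lay Particl (largest of its 4 adjusted p-values 9.27e-04), Tti2 (8.99e-04) and Kansl1l (smallest difference 1.01). Just outside were Scyl2, with 0.00101, and Cnot7, whose smallest difference was 0.99. By p alone 37 probe sets were missed, and by fold alone 7. When each of the 12 arrays was left out in turn, 30 to 44 probe sets separated the sides, and 26 of the 47 did so every time. The lowest count came without AKR/J replicate 2. Of the named probe sets, 12 missed the rule at least once. These were the ones for Stk25, Gmfb, Frg1, Slf1, Ntrk3, Tti2, Tmem26, Kansl1l, Particl, Pccb and Fndc1 and 1451796_s_at of Hdc.

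The E18.5 arrays, which the rule did not use, showed the same direction for most of the 47. There were 5 albino arrays (2 of AKR/J) and 6 pigmented arrays at that age. They came from the same 4 strains, so coat colour and strain descent cannot be told apart at E18.5 either. At E18.5 the same rule was met by 4 of the 16 higher and 10 of the 31 lower probe sets, against 0.0236% (higher) and 0.0707% (lower) of all probe sets. The mean of the albino strains minus that of the pigmented strains passed an adjusted limma p of 0.05 in the same direction for 9 of 16 higher probe sets (5.82% of all) and 25 of 31 lower ones (6.83%), and for none in the opposite direction (none at an unadjusted limma p under 0.05 either). The arrays were apart for 8 of 16 (0.688% of all) and 24 of 31 (1.77%). In all, 42 of 47 had the same sign. E18.5 pools held varying amounts of tissue from outside the retina, with summed muscle signals (log2) of 9.86 to 15.7 in albino and 9.58 to 14.9 in pigmented arrays and lens signals of 10.5 to 17.2 and 8.78 to 17.8, and their part was not tested.

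Mtrex had 8.60 to 9.25 in albino and 3.37 to 3.61 in pigmented arrays at E18.5, a difference of 5.35 (adjusted p = 5.16e-11) beside 5.15 at P30.5. Runx1t1 differed by -4.51 at E18.5 and by -3.69 at P30.5, and Mtmr7 by -3.94 and -4.04. Kcnj9 was dimmer in all strains at E18.5, at 5.47 to 6.43 in albino and 3.81 to 4.61 in pigmented arrays, and still differed by 1.71. Ang, Stk25 and Kbtbd11 were among the 12 called probe sets with a larger difference at E18.5 than at P30.5, at -2.69, -2.40 and 2.04, and 22 called probe sets had a smaller one.

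For 13 probe sets the E18.5 difference did not pass the threshold. Of these, 5 were at or near the floor in every E18.5 array, under 4.5, among them Spata9 (difference -0.13) and A530058N18Rik (-0.48). At E18.5 Mc1r had 5.69 and 5.21 in the AKR/J arrays and 5.35, 5.85 and 5.46 in those of NOD.NON-H2-nb1, against 5.33, 5.25 and 5.26 in C57BL6/J and 5.22, 5.32 and 5.53 in CAST/EiJ, so that the strains overlapped (difference 0.18, adjusted p = 0.411). Gckr had 4.19 to 5.16 in albino and 4.45 to 5.57 in pigmented arrays at that age. Both Hdc probe sets overlapped as well, with differences of 0.48 for 1454713_s_at and 0.04 for 1451796_s_at. Tmem26, Pccb, Ntrk3 and Abhd14a, at 0.44, 0.27, 0.49 and -0.47, also missed the threshold while their levels were measurable. Whether the difference itself changed between the ages was not tested, because the probe sets were chosen on the P30.5 values.

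**Figure D2:**
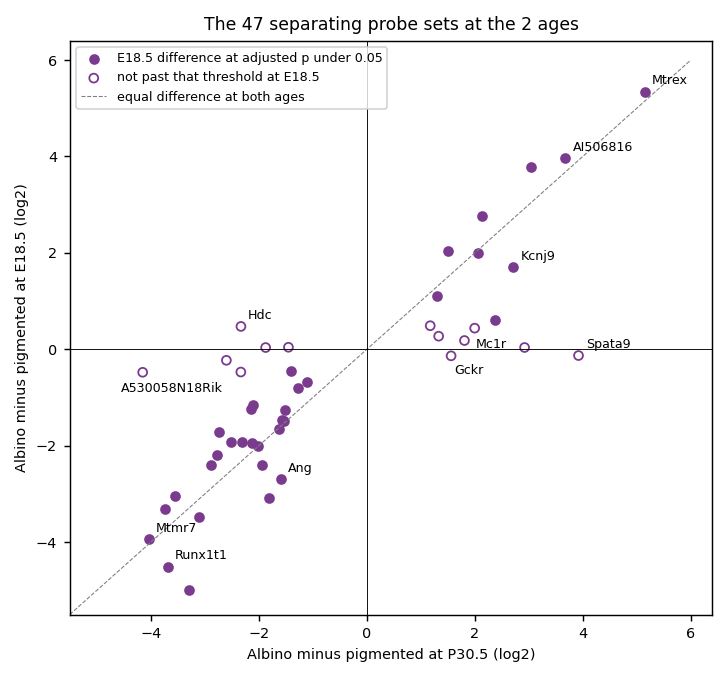
Albino minus pigmented difference (log2) of the 47 separating probe sets at P30.5 (horizontal axis) and at E18.5 (vertical axis), 1 point per probe set. Filled points passed an adjusted p of 0.05 at E18.5, open points did not, and the dashed line marks equal differences. The 34 filled points lie in the quadrants of equal sign, while Spata9, Mc1r and Gckr lie within 0.2 of 0 at E18.5 and the labelled Hdc point (1454713_s_at) is at 0.48.

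**Figure D3:**
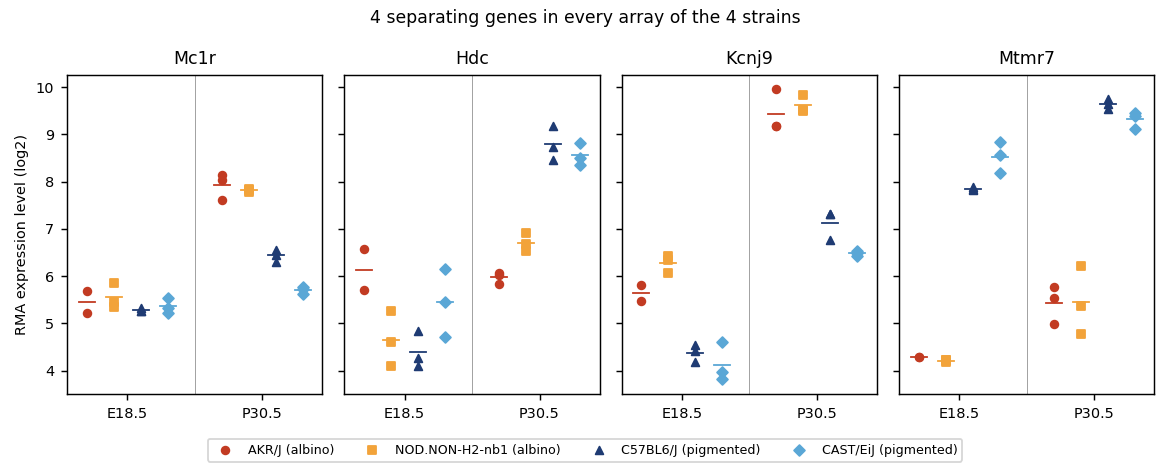
RMA level (log2) of 4 separating genes in every E18.5 and P30.5 array, with 1 symbol per array and a line at each strain mean. At E18.5 the strains overlap for Mc1r and Hdc (1454713_s_at), while albino arrays are above pigmented ones for Kcnj9 and below them for Mtmr7 at both ages.

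The rd7 arrays at P30.5, whose coat colour the labels do not give, were compared with the midpoint between the sides. In 38 of 47 probe sets all 3 rd7 arrays lay on the pigmented side, in 3 on the albino side and in 6 they were mixed. The closeness of rd7 to each strain over all probe sets was not compared, so these positions do not tell coat colour from strain descent. Mtrex had 3.52, 3.68 and 3.54 in rd7, at the pigmented level, and Mc1r 6.0, 5.90 and 5.87. The 3 exceptions were Tmem26, which at 10.1 to 10.5 exceeded every albino array, and both Hdc probe sets, of which 1454713_s_at had 4.69, 5.25 and 4.49 in rd7 and was below every albino array.

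Probe sets of the same gene did not always move together. Of the 30 genes, 20 had more than 1 probe set in the RMA table. Hdc separated with both, and the other 19 had 36 further probe sets. Of these 36, 23 had the gene's sign in all 4 comparisons, 13 had arrays apart in the gene's direction, 6 passed a difference of 1 in that direction and 19 lay within 0.5 of 0. Genes whose probe sets moved together included Particl, with 3 others at -0.78, -1.17 and -1.40, and Dcaf17, with -1.13 and -0.43. In contrast, the other Mtrex probe set was bright, with a mean of 10.2, and differed by -0.11. For Gtpbp4, Eml6 and Mtmr7 the other probe sets differed by -0.12, -0.05 and -0.41, and for Runx1t1 by 0.27 and -0.54. Those of A530058N18Rik differed by -0.40 and -0.16. Both were brighter, with means of 8.11 and 6.13, against 5.81 for the separating one. Those of Kansl1l differed by -0.12, 0.04, 0.82, -0.02 and 0.55, and the brightest of them (mean 9.07) was the one at -0.02. Kcnj9 had a further probe set at -0.68, against its direction, with a mean of 8.25 beside 8.17 for the separating one. Tti2 held both kinds, with one at -1.50, one at -0.41 and one at 0.99 whose arrays were apart in the opposite direction. The Tti2 probe set at 0.99 was the brightest of the gene, with a mean of 8.78 against 6.12 for the separating one. The 5 other Ntrk3 probe sets had mean differences from 0.10 to 0.73. That at 0.47 did not keep its sign, with -0.83 to 1.78 over the 4 comparisons. Each value is therefore given for a probe set and not for the gene's total RNA. The part of sequence differences between the strains under the probes was not tested.

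**Figure D4:**
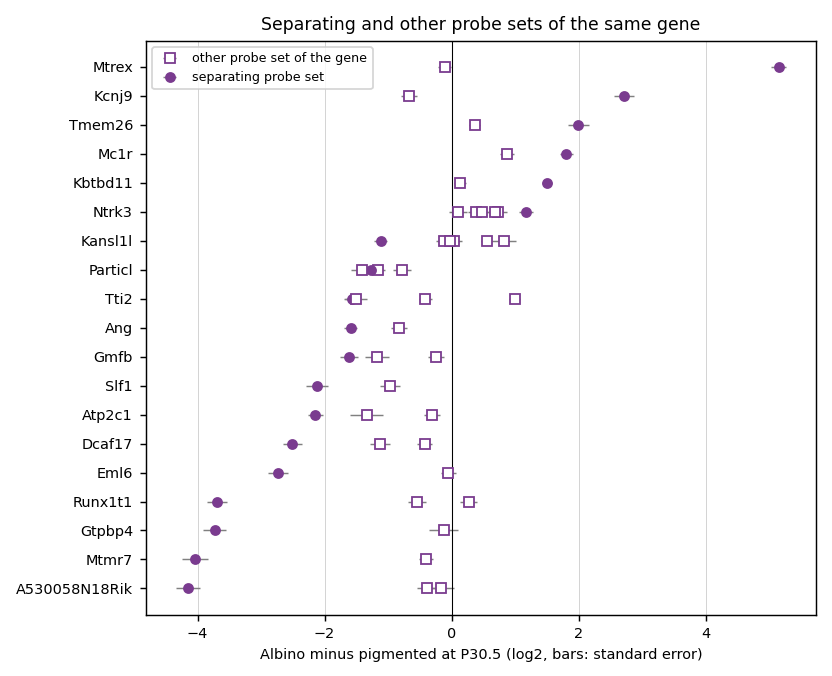
Albino minus pigmented difference at P30.5 (log2, horizontal axis, bars are standard errors) of the separating probe sets (filled circles) and of the other probe sets of the same 19 genes (open squares). Particl and Dcaf17 have all points on one side of 0, while the other probe sets of Mtrex, Eml6 and Gtpbp4 lie near 0 and that of Kcnj9 on the opposite side.

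The MAS5 signals measured the same arrays by another summary and covered probe sets outside the RMA table. In median-centred log2 MAS5 signals, all 47 kept their direction in all 4 comparisons and had no overlap between the sides, and 12 met the full rule. The same arrays chose the 47 by RMA, so this is a description and not a separate check. Beyond those covered by RMA, 7416 probe sets passed a minimum strain mean of 6 (log2), of which 0 separated the sides as higher by limma (0%) and 9 as lower (0.121%). At an unadjusted p under 0.05 in all 4 comparisons and the same fold limit, 7 were higher and 36 lower. They included Pde6c, the catalytic subunit of the cone phosphodiesterase, with signals of 639, 506 and 653 in AKR/J arrays and 602, 789 and 598 in NOD.NON-H2-nb1, against 3250, 4205 and 3551 in C57BL6/J and 1690, 1987 and 1463 in CAST/EiJ, a log2 difference of -2.05 ± 0.13. The other 10 cone genes listed differed by less, from -1.07 (Gngt2) to 0.06 (Gnat2) in centred MAS5 signals, and of these Pde6h, the inhibitory subunit, had arrays apart (-1.02). For none of these differences, that of Pde6c included, can bulk retina tell fewer cells of a type from less RNA per cell. Rps9, a protein of the small ribosomal subunit with many processed copies in the genome, had 199 to 443 in albino and 4364 to 6844 in pigmented arrays, a difference of -4.53. Bzw2, a translation regulator, differed by -3.73, Efhd2, a calcium-binding protein, by -2.68, Khdrbs1, an RNA-binding protein, by -2.37 and Uri1, a prefoldin-like protein, by -1.90. A further Abhd14a probe set had 301 to 403 in albino and 1119 to 2062 in pigmented arrays. Its difference of -2.32 stood beside the -2.33 of the separating Abhd14a probe set in the RMA table. The separating genes had 23 probe sets outside the RMA table, 9 of them with a mean MAS5 signal (log2) of at least 6, and the 8 of these that were not of Abhd14a differed by -0.54 to 0.20. Among them were bright probe sets of Kbtbd11 (0.06), Gmfb (-0.18), Atp2c1 (-0.24 and 0.20) and Nsg2 (-0.38), which did not share the size of the separating ones. When single arrays were left out, 3 of the 9 missed the rule at least once. These were Khdrbs1, 1439170_at and 1423666_s_at.

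Because Tyr defines the albino state, the positions of the separating genes were read from the gene order of the RefSeq annotation. Of 101 genes from 50 before to 50 after Tyr on chromosome 7, 47 were measured and none separated the sides by limma, nor did any pass with unadjusted p-values under 0.05 and 2-fold in all 4 comparisons. In the mean difference, 5 of the 47 passed an adjusted p of 0.05 as higher and 3 as lower, against 7.28% and 5.78% of all genes. Fah, the last enzyme of tyrosine breakdown, was higher by 0.67 with arrays apart, Ctsc by 0.74, Folh1 by 0.77 and Aamdc by 0.36, beside Tyr, and Ankrd42, Kctd14 and Dlg2 were lower by 0.58, 0.52 and 0.38. The nearest separating gene was Ntrk3, 115 genes from Tyr. Chromosome 8 held 5 separating genes, or 16.7% of them, and 5.14% of the measured genes. Chromosome 13 held 4, or 13.3%, and 3.89% of the measured genes. Several stood near each other. Spata9 and Slf1 were 7 genes apart on chromosome 13, with Spata9 higher and Slf1 lower, Mtmr7 and Frg1 11 apart on chromosome 8, lower and higher, and Eml6 and Nsg2 14 apart on chromosome 11, both lower. Cnot7, which just missed the fold limit, was 2 genes from Mtmr7. In all, 13 of the 27 genes with a place in that order had another separating gene within 50 genes. The same count was not made for other measured genes, so this one only describes the positions.

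Lists of genes tied to pigment, light and the retina were read from the mean difference, with 1 probe set per gene, the brightest in the RMA table, and an adjusted p of 0.05 over all probe sets. Over all 12349 genes, 7.28% were higher and 5.78% lower and the median difference was -0.01. For 7 called genes another probe set was brighter by MAS5 signals, 5 times outside the RMA table, and its centred difference is given beside the gene. Of 25 measured melanin and melanosome genes, 3 were higher and 1 lower, with a median of 0.06. Beside Mc1r and Tyr, Bloc1s6, a subunit of the BLOC-1 complex that sorts cargo to melanosomes, was higher by 1.39 ± 0.11 with arrays apart, but its brighter probe set differed by 0.50 with overlap, at 10.8 to 11.3 in albino and 9.9 to 11.1 in pigmented arrays (MAS5, log2) and with CAST/EiJ alone low. Hps1, of the BLOC-3 complex, was lower by 0.82 ± 0.13 with arrays apart. Of 10 pigment epithelium genes, 6 were higher and none lower (none at an unadjusted limma p under 0.05 either), with a median of 0.93. Of these, only Krt18, a keratin, had arrays apart (1.03 ± 0.14). Itgb5, the integrin subunit used to bind shed photoreceptor tips, had means of 9.49 in AKR/J arrays and 9.05 in NOD.NON-H2-nb1, against 9.0 in C57BL6/J and 6.68 in CAST/EiJ, so that CAST/EiJ alone was low. Lrat, which makes retinyl esters, differed by 1.23 ± 0.37, with AKR/J alone high at 11.1 and with the call lost when any of 8 single arrays was left out. Krt8, a keratin, differed by 1.12 with AKR/J alone high at 9.13, and its brighter probe set by 1.03, and it lost its call without C57BL6/J replicate 3.

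The lists of light, stress and immune genes held calls in both directions, to be read against 7.28% higher and 5.78% lower over all genes. Of 15 genes of light stress and gliosis, 2 were higher, the metallothionein Mt2 (0.82) and the transcription factor Atf3 (0.73), and 1 lower, the cytokine signalling inhibitor Socs3 (-0.44). In each the means of C57BL6/J and of the albino strains were close and CAST/EiJ stood away. Of 11 genes of dopamine and L-DOPA handling, Pts, of cofactor synthesis for tyrosine hydroxylase, was higher by 0.42 and the call was lost without any of 9 single arrays, while Th, tyrosine hydroxylase, differed by -0.07 (adjusted p = 0.812). Of 10 oxidative defence genes, the peroxidase Prdx2 was lower by 1.32 ± 0.13 with arrays apart, whereas its brighter probe set differed by 0.19 with overlap, at 13.0 to 13.3 in albino and 12.5 to 13.3 in pigmented arrays (MAS5, log2). The glutathione transferase Gstt2 was higher by 0.80. None of the 14 clock genes passed the limma threshold, at differences of -0.22 to 0.38, and 1 had an unadjusted p under 0.05. The microglia and complement list had 3 of 12 higher and 1 lower. The microglial receptor P2ry12 was higher by 0.70 and the complement protease Cfi lower by 0.77, both with arrays apart in RMA values. By centred MAS5 signals their arrays overlapped (0.49 and -0.85), and P2ry12 lost its call. Laptm5 and Cx3cr1, at 0.48 and 0.31, lost their calls without any of 5 and 9 single arrays, and the brighter Laptm5 probe set differed by -0.02. The antigen presentation list had 0 higher, also at an unadjusted limma p under 0.05, and 3 of 12 lower, H2-K1 (-0.70), H2-M3 (-0.59) and Tapbp (-0.53). H2-K1 was low in AKR/J alone, at 6.87, against 9.63 in NOD.NON-H2-nb1.

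In the retinal neuron lists, read against the same 7.28% and 5.78%, CAST/EiJ alone stood away in several called genes. The rod kinase Grk1 had means of 7.59 in AKR/J arrays and 7.52 in NOD.NON-H2-nb1, against 7.81 in C57BL6/J and 9.74 in CAST/EiJ, and was the only call of 5 rod genes (-1.22). Of 10 genes of ON bipolar cells, the kinase Prkca (-1.23) and the channel Trpm1 (-1.14) were lower, although the brighter Prkca probe set differed by 0.09, and Nyx (1.04) was higher, with 7.06 and 7.32 in the albino strains, against 7.22 in C57BL6/J and 5.08 in CAST/EiJ. Of 12 genes of ganglion cells and axon crossing, 2 were higher, the guidance receptor Robo2 (0.99) and the transcription factor Pou4f1 (0.82), both with C57BL6/J above the albino strains and CAST/EiJ low, and Nrcam, an adhesion molecule of the crossing, was lower by 0.45 with arrays apart, against -0.06 for its brighter probe set. The cone channel subunit Cngb3 was the 1 call of 3 cone genes (-0.50), with NOD.NON-H2-nb1 (8.02) and C57BL6/J (8.08) nearly level. Retsat, a retinol saturase, had a mean difference of -0.65 with CAST/EiJ alone high at 9.56. Its means in AKR/J (7.36) and NOD.NON-H2-nb1 (7.81) lay above that in C57BL6/J (6.93). Of genes from outside the retina, 0 of 7 muscle and 0 of 2 blood genes passed, none even at an unadjusted limma p under 0.05. The 14 lens genes could not be read this way, being outside the RMA table, and their MAS5 sums nearly separated the sides. Of 8 endothelium genes, which vessels of the retina itself also express, 1 passed, Vwf (-0.56). It lost its call when any of 4 single arrays was left out.

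**Figure D5:**
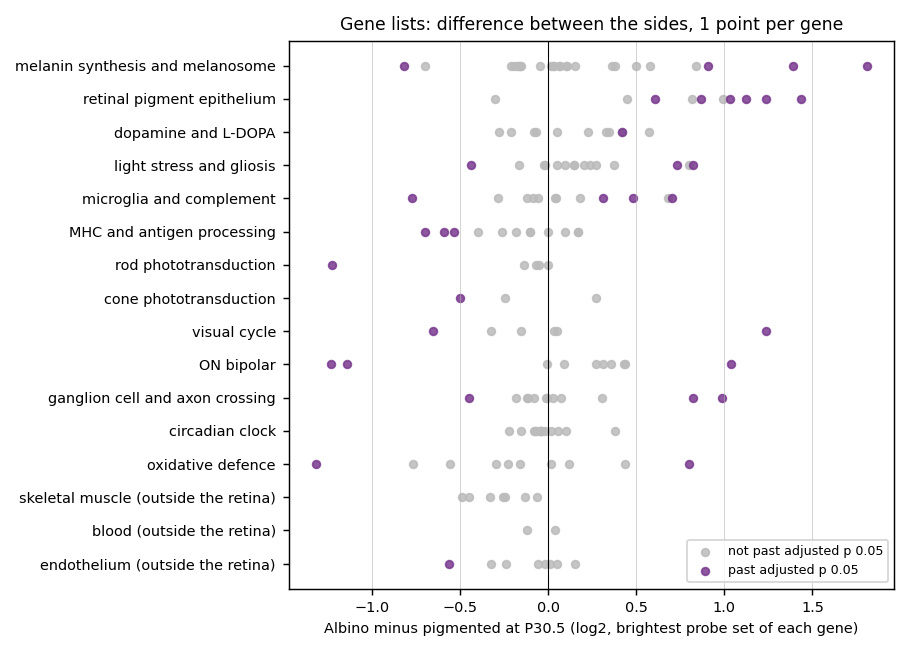
Albino minus pigmented difference at P30.5 (log2, horizontal axis) of each measured gene in 16 lists, 1 point per gene by its brightest probe set in the RMA table. Coloured points passed an adjusted p of 0.05 and grey points did not. The pigment epithelium list has 6 coloured points, all right of 0, and the clock list has none.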

How the data were processed

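The authors deposited log2 RMA values for 25444 probe sets, 56.4% of the 45101 on the Affymetrix array, and MAS5 intensity signals, deposited on a linear scale, for all of them, with a trimmed mean of 500 in every array. Library size does not apply to arrays, and the number of arrays limits the precision. Probe sets were named by the platform annotation, with 20506 carrying 1 symbol, 399 several and 4539 not listed.

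The 12 P30.5 arrays entered a linear model of the RMA values with a mean for each strain (limma 3.58.1, R 4.3.3), leaving 8 residual degrees of freedom. P-values were Benjamini-Hochberg adjusted within each of the 4 strain pairs and the mean contrast. The 11 E18.5 arrays were fitted alone. MAS5 signals were log2 transformed and median centred, and outside the RMA table limma used a mean-variance trend. The rule was tried on simulated data with each probe set's own spread. It found 4 of 60 probe sets given a log2 shift of 1, the fold limit itself, 45 of 60 at 2 and 52 of 60 at 3. Differences near the fold limit can therefore be missed. Alternatives were the MAS5 signals, no dim probe sets, the labelled date as a block, more arrays, other priors and thresholds, and each array left out.

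Arrays sharing a labelled date deviated together from their strain means, with an average r of 0.311 (18 pairs, 0.124 to 0.574) against -0.152 between dates (36 pairs), so dates pair arrays. The labels do not say what was done on the date. AKR/J replicates 2 and 3 shared a date, and AKR/J, unlike the other strains, had no P30.5 array of the earliest date. All separating genes with 1 symbol were named, and of each list up to 4 genes of those called, with the largest differences. Of the probe sets read from MAS5 signals only, the 5 largest in each direction were named. Th, Rpe65, Xist, Pde6c, Uri1, Scyl2, Cnot7 and the called genes beside Tyr were named after their values were seen. The members and lists were chosen with earlier results of these data known.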

Additional observations from a re-analysis of the deposited data

Results flagged for a closer look

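In Ntrk3, the array of NOD.NON-H2-nb1 replicate 1 was far from the other 5 albino arrays at P30.5, at 8.33 against a nearest value of 8.0 and a median of 7.92. It was the 1 flag among 62 sides of named probe sets tested with Dixon's criterion, which flags about 1 in 20 by chance. Without that array Ntrk3 missed the rule.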

How the results depend on the processing

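Of the 47 separating probe sets, 45 also separated the sides when labelled date entered as a replicate block, which gave 57. With date as a random block 47 of 47 did so (64), and without dim probe sets 46 (46). The number was 46 with rd7 in the fit (49), 45 with trend and robust prior (45) and 39 with all 29 arrays (43). With MAS5 signals the count was 15 when centred (2 higher, 13 lower) and 16 as deposited (3 higher, 13 lower), of which 12 and 13 were among the 47. The cause was not tested. An adjusted p under 0.05 gave 76 (27 higher, 49 lower). Each array left out in turn gave 30 to 44 (11 to 14 higher, 19 to 32 lower). A 1.5-fold limit gave 54, and leaving out probe sets that can match several transcripts gave 41. The mean difference passed for 3723 probe sets (1937 higher, 1786 lower), for 2695 by MAS5 signals as deposited (1696 higher, 999 lower), for 2927 to 4154 with an array left out and for 5520 with the date block. At E18.5, 14 of the 47 met the rule. That count was 9 with MAS5 signals centred, 8 as deposited, 25 at an adjusted p under 0.05, and 12 to 15 with an array left out, where AKR/J can keep a single array assumed to vary like the others. Outside the RMA table, 9 became 15 at an adjusted p under 0.05 and ranged from 6 to 9 with an array left out. None of the named differences changed sign. With the date block the Tti2 and Fndc1 probe sets missed the rule, and no call of a list gene was lost. With the median of each gene's probe sets, list calls numbered 25 in place of 35, with melanin and melanosome genes at 2 in place of 4 and dopamine genes at 0 in place of 1. Of 33 called list genes, 22 passed with MAS5 signals and 26 with any array left out. The probe sets' own signal limits what is seen, since the weaker side of 18 members had a mean under 5.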
